A study of Mus musculus with 8 samples.

Results

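Aminoacyl-tRNA synthetases were followed in regulatory T cells (Tregs) that had been isolated from the mouse spleen by cell sorting. The genes were taken by symbol: a letter for the amino acid followed by "ars", with or without a closing 1, 2 or 3, and in addition Farsa, Farsb, Eprs, Aimp1 and Aimp2. This gave 39 of the 21524 genes in the deposited table, of which 20 encode cytosolic enzymes or their subunits, 17 encode mitochondrial enzymes (symbols ending in 2) and Aimp1 and Aimp2 encode scaffold proteins of the multisynthetase complex. The table uses older symbols for most of them, so that Vars stands for what is now called Vars1, and these are kept here. There were 4 libraries of the treatment IL-2 (libraries 41 to 44) and 4 of the treatment control, labelled Ctrl (libraries 45 to 48). The series concerns an IL-2 mutein given with CTLA-4 Ig after heart or kidney transplantation from BALB/c donors into C57BL/6 mice. The labels of these libraries give neither the form or dose of IL-2 nor what the controls received, and no strain, genotype, age, graft or number of animals. No source used here says that each library came from its own animal, and a p-value then reflects only how far the 8 libraries vary, which may be technical.

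Each synthetase joins an amino acid to the tRNAs that carry its codons, using ATP, and so supplies the ribosome with its substrates. The enzymes fall into the structural classes I and II. Several cytosolic enzymes sit in the multisynthetase complex, held together by scaffold proteins, and the rest act outside it. Mitochondria charge their own tRNAs with a separate set of nuclear-encoded enzymes, although lysyl- and glycyl-tRNA synthetase are each made from 1 gene for both compartments. T cells that leave rest raise protein synthesis, and IL-2 is a growth signal for Tregs.

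Values below are normalised reads, recovered from the deposited variance-stabilised scale, with SD and n = 4 per group unless the single libraries are given. The libraries held an estimated 4953466 to 6399125 reads each. Treg markers were abundant in all 8 libraries (summed Foxp3, Il2ra, Ctla4, Ikzf2, Cd4 and Cd3e, 36976 to 42211 with IL-2 and 28909 to 30081 in controls), with 1 of 6, Cd4, lower in all IL-2 libraries and 1 higher. Some markers of other cells moved with the groups, and the summed myeloid markers had more reads in controls than Eprs, the most read synthetase gene (1245 ± 76.2). The 5 B cell markers in the table summed to 100 to 211 reads with IL-2 and 380 to 496 in controls, with Cd74 the 1 gene of 5 that was lower in all IL-2 libraries and Cd79a and Ms4a1 under 10 reads everywhere. The 8 myeloid markers summed to 812 to 1038 and 1619 to 1875, with 3 of 8 lower in all IL-2 libraries (Lyz2, Adgre1 and Ctss), Cd14 at 0 in all and Adgre1 and Itgax under 10. The 4 plasma cell markers went the other way (495 to 597 and 272 to 372), with 1 of 4, Xbp1, apart between groups, Mzb1 at 0 and Sdc1 under 10. The 6 CD8 and NK markers summed to 204 to 251 and 136 to 212, with Nkg7 higher and Klrb1c lower in all IL-2 libraries and Ncr1 and Klrk1 under 10, and erythroid markers to at most 38.6 and 76.2. The part of these cells in the results was not tested. Reads of the Y-linked gene Ddx3y were at 0 in libraries 41, 42 and 45 and present in the other 5, so libraries of each kind occur in both groups.

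The comparison asked whether the transcripts of the tRNA-charging enzymes of splenic Tregs differ under the IL-2 treatment. Many cytosolic enzymes were modestly higher with IL-2 and none was called lower, while the mitochondrial enzymes, apart from threonyl-tRNA synthetase 2, gave no call. The summed normalised reads of the 20 cytosolic genes were 11163 ± 633 in the IL-2 group, 1.26 times the control level of 8871 ± 196. Every IL-2 library (10421.5 to 11760) lay above every control library (8642 to 9067). The sum holds Qars, which is listed at 0 in control library 45; without it the 19 other genes gave 10851 ± 489 and 8732 ± 138, a ratio of 1.24, again without overlap. The 17 mitochondrial genes summed to 2932 ± 380 and 2659 ± 344, a ratio of 1.10, and here the groups overlapped: library 41 held 2552 reads, fewer than control library 46 with 3165. Aimp1 and Aimp2 together gave 479 ± 18.2 and 344 ± 52.3, 1.39-fold higher and without overlap. In bulk samples a larger number of transcripts per cell and a different mix of cells in the sort cannot be told apart.

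**Figure D1:**
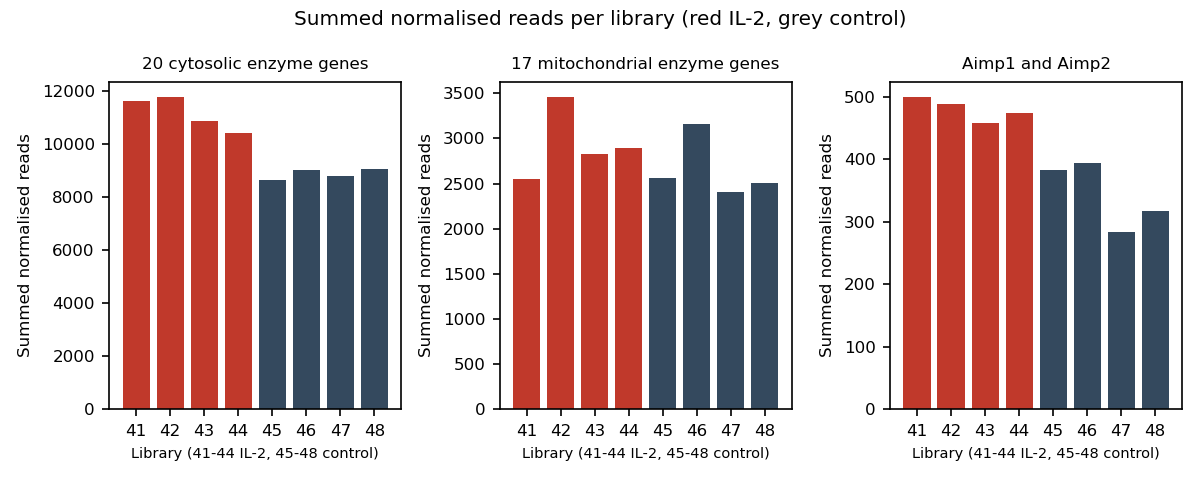
Summed normalised reads (vertical axis, from 0) of the 20 cytosolic enzyme genes, the 17 mitochondrial enzyme genes and the scaffold genes Aimp1 and Aimp2 in each library, with IL-2 in red and control in grey. The 4 IL-2 bars stand above all 4 control bars in the cytosolic and scaffold panels and not in the mitochondrial panel.

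Gene by gene, limma was fitted on the deposited values of the 5261 genes with enough reads, and 21 of the 39 synthetase genes were among them. The other 18 (4 cytosolic, 13 mitochondrial and Aimp2) had too few reads. Of the 16 cytosolic enzymes tested, 8 were higher and 0 lower at an adjusted p under 0.05. Of the 4 mitochondrial enzymes, 1 was higher and 0 lower, and Aimp1 was higher. The background in this fit was 16.8% of all tested genes higher and 14.6% lower, 31.4% in either direction. The median difference on the deposited log2 scale was 0.18 for the 16 cytosolic genes, -0.00 for the 4 mitochondrial genes and -0.01 for all tested genes. Of the 10 genes that rose, 8 passed the filter on low values in all 8 libraries, while Nars did so in 2 and Tars2 in 3 of the 4 controls. Of the 21 tested members, 10 had IL-2 libraries wholly above the controls, where 16.7% of all tested genes did. They were the same 10 genes that were called. With 4 libraries per group a call and such a separation nearly coincide, so this is not separate evidence.

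A fit on log2(normalised reads + 5) took in 10777 genes, 38 of the 39 synthetase genes among them. There 6 of 20 cytosolic enzymes rose and 0 fell, 1 of 16 mitochondrial enzymes rose and 0 fell, and 1 of the 2 scaffold genes rose, against a background of 10.9% higher and 9.07% lower, 19.9% in either direction. The median difference was 0.32 for cytosolic genes, 0.09 for mitochondrial genes and -0.01 for all genes. Of the 8 cytosolic rises on the deposited scale, Nars and Sars did not pass here (limma adjusted p = 0.0596 and 0.0714). Differences and intervals quoted below as log2 are from this fit.

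Vars, which encodes the cytosolic valyl-tRNA synthetase, had the smallest p. Its normalised reads in libraries 41 to 44 were 1224, 1299, 1141 and 828, and in control libraries 45 to 48 they were 639, 714, 732 and 680. Library 44 was the lowest of the IL-2 group and still above every control. The means, 1123 ± 207 and 691 ± 40.8, differ 1.62-fold (log2 difference 0.68 ± 0.13 SE, limma adjusted p = 0.00299, and 0.00192 on the deposited scale). Eprs, the enzyme that charges both glutamate and proline tRNAs, was the most read member. It had 1515, 1829, 1749 and 1487 reads with IL-2 and 1304, 1316, 1198 and 1163 in controls. Libraries 42 and 43 were the highest, and no control reached the lowest IL-2 value. The ratio was 1.32 (log2 difference 0.40 ± 0.09 SE, limma adjusted p = 0.00764). Kars, the lysyl-tRNA synthetase of both cytosol and mitochondria, had 1022, 815, 904 and 800 reads with IL-2 against 668, 700, 628 and 649. Its groups were 1.34-fold apart (log2 difference 0.41 ± 0.10 SE, limma adjusted p = 0.0110). Vars, Eprs and Kars together made up 46.1% of the rise of 2292 reads in the cytosolic sum.

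The other cytosolic rises were smaller or less even. Gars, the glycyl-tRNA synthetase and the other gene that serves both compartments, had 709, 740, 880 and 626 reads with IL-2 and 497, 611, 584 and 582 in controls. The lowest IL-2 library, 44, was only slightly above the highest control, 46 (1.30-fold, log2 difference 0.37 ± 0.12 SE, limma adjusted p = 0.0438). Tars, the threonyl-tRNA synthetase, had 698, 628, 560 and 688 against 478, 513, 500 and 548 (1.26-fold, log2 difference 0.33 ± 0.10 SE, limma adjusted p = 0.0413). Library 43 came closest to the controls. Rars, the arginyl-tRNA synthetase, had 439, 395, 510 and 491 against 338, 384, 288 and 340 (1.36-fold, log2 difference 0.44 ± 0.13 SE, limma adjusted p = 0.0309). Sars, the seryl-tRNA synthetase, had 785, 867, 748 and 746 against 632, 516, 657 and 732. Control library 48 almost reached the IL-2 group, and the call rested on the deposited scale (1.24-fold, limma adjusted p = 0.0495). Nars, the asparaginyl-tRNA synthetase, had 406, 387, 386 and 526 against 357, 99.8, 323 and 203. Its controls were uneven, from 99.8 in library 46 to 357 in library 45, and its 1.73-fold ratio passed on the deposited scale (limma adjusted p = 0.0302).

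**Figure D2:**
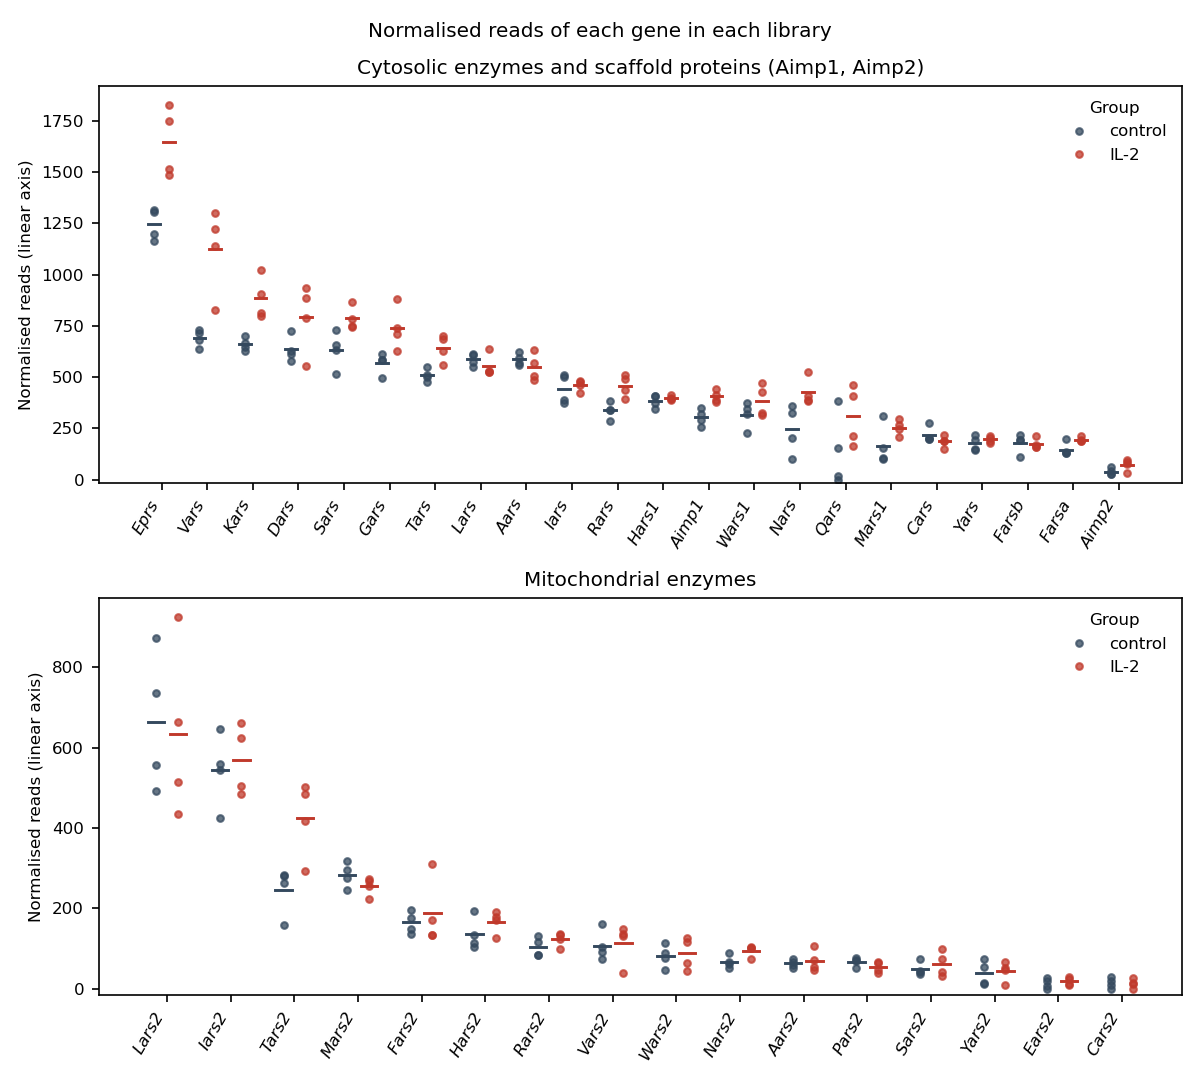
Normalised reads (vertical axis, linear) of the 38 genes in the fit on normalised reads, ordered by level, with 1 point per library, IL-2 in red and control in grey, and the group mean as a bar where no library of the group is at 0. Eprs, Vars and Kars show red points wholly above grey points, Qars and Mars1 show widely spread controls, and among the mitochondrial genes Tars2 alone has groups that do not overlap.

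Of the 8 enzymes of the multisynthetase complex and its scaffold genes Aimp1 and Aimp2, 4 of the 9 tested on the deposited scale rose (Eprs, Kars, Rars and Aimp1). Of all tested genes, 16.8% rose in that fit, the share to set beside each count of rises on the deposited scale given here. The differences were above 0 for 8 of the 9 (median 0.19) and for 9 of 10 on normalised reads (median 0.42). The median over all tested genes was -0.01 on both scales. Qars and Mars1, among the 8 above 0, each had 1 control library past the filter on low values. Differences between its members were not tested. Aimp1, the scaffold next to arginyl-tRNA synthetase, had 415, 390, 380 and 442 reads with IL-2 and 321, 350, 258 and 290 in controls (1.34-fold, log2 difference 0.42 ± 0.13 SE, limma adjusted p = 0.0355). Aimp2, a scaffold needed to assemble the complex, had few reads, 84.5, 97.0, 76.6 and 31.6 against 61.5, 43.1, 26.0 and 27.4. Library 44 fell among the controls, and the gene did not pass (limma adjusted p = 0.188, with a log2 interval from -0.06 to 1.60 at 95%). Lars and Iars, the leucyl- and isoleucyl-tRNA synthetases of the complex, stood at 555 ± 55.0 against 586 ± 31.8 and at 460 ± 26.1 against 443 ± 72.9. Their 95% intervals, -0.30 to 0.14 and -0.21 to 0.35 on the log2 scale, both include 0, and neither gene passed. The 12 cytosolic genes outside the complex gave 5 rises among 8 tested on the deposited scale (Vars, Gars, Tars, Nars and Sars). Class I and class II cytosolic enzymes gave 3 and 5 rises among 8 tested each, with median differences of 0.21 and 0.17 on the deposited scale. Eprs, which joins a glutamate enzyme of class I and a proline enzyme of class II, was counted in class I.

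Qars, Mars1 and Dars, the glutaminyl-, methionyl- and aspartyl-tRNA synthetases of the complex, had higher IL-2 means without passing. Qars had 409, 463, 213 and 165 reads with IL-2, while in controls it was listed at 0 in library 45, and had 386, 18.8 and 152 in libraries 46 to 48. An enzyme needed by every cell listed at 0 can be a failed estimate, so no mean of Qars is given, and its log2 interval ran from 0.23 to 4.74 (limma adjusted p = 0.118). Mars1 had 245, 298, 264 and 209 against 99.8, 153, 104 and 309. Control library 48 was the highest of all 8, and the other 3 controls were below every IL-2 library (limma adjusted p = 0.111). Dars had 934, 886, 556 and 790 against 724, 580, 612 and 626, with library 43 below every control (limma adjusted p = 0.202). The coefficient of variation among controls was 58.9% for Mars1 and 47.9% for Nars, against a median of 12.9% over the cytosolic genes, where counting error alone gives a median of 4.86%.

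The remaining cytosolic enzymes passed the threshold on neither scale. Wars1, the tryptophanyl-tRNA synthetase, is also known as an interferon-inducible gene. It had 324, 471, 315 and 428 reads with IL-2 against 228, 372, 319 and 345, with overlapping groups (limma adjusted p = 0.318, log2 interval -0.11 to 0.67). Aars, the alanyl-tRNA synthetase, was among the well-read members with no call: it had 630, 568, 485 and 506 against 594, 558, 568 and 625 (log2 difference -0.10, interval -0.34 to 0.13, limma adjusted p = 0.553). Hars1, the histidyl-tRNA synthetase, stood at 399 ± 11.7 and 385 ± 30.3. Cars, the cysteinyl-tRNA synthetase, had the lowest cytosolic ratio, 0.85 (187 ± 29.1 against 218 ± 38.5, limma adjusted p = 0.434), and Yars, the tyrosyl-tRNA synthetase, stood at 196 ± 14.0 and 177 ± 35.3. Phenylalanyl-tRNA synthetase is built from the products of Farsa and Farsb. Farsa had 195 ± 12.8 reads against 147 ± 33.1 and Farsb 174 ± 25.8 against 179 ± 48.2, and neither passed (limma adjusted p = 0.128 and 0.994, log2 intervals 0.03 to 0.81 and -0.49 to 0.48).

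**Figure D3:**
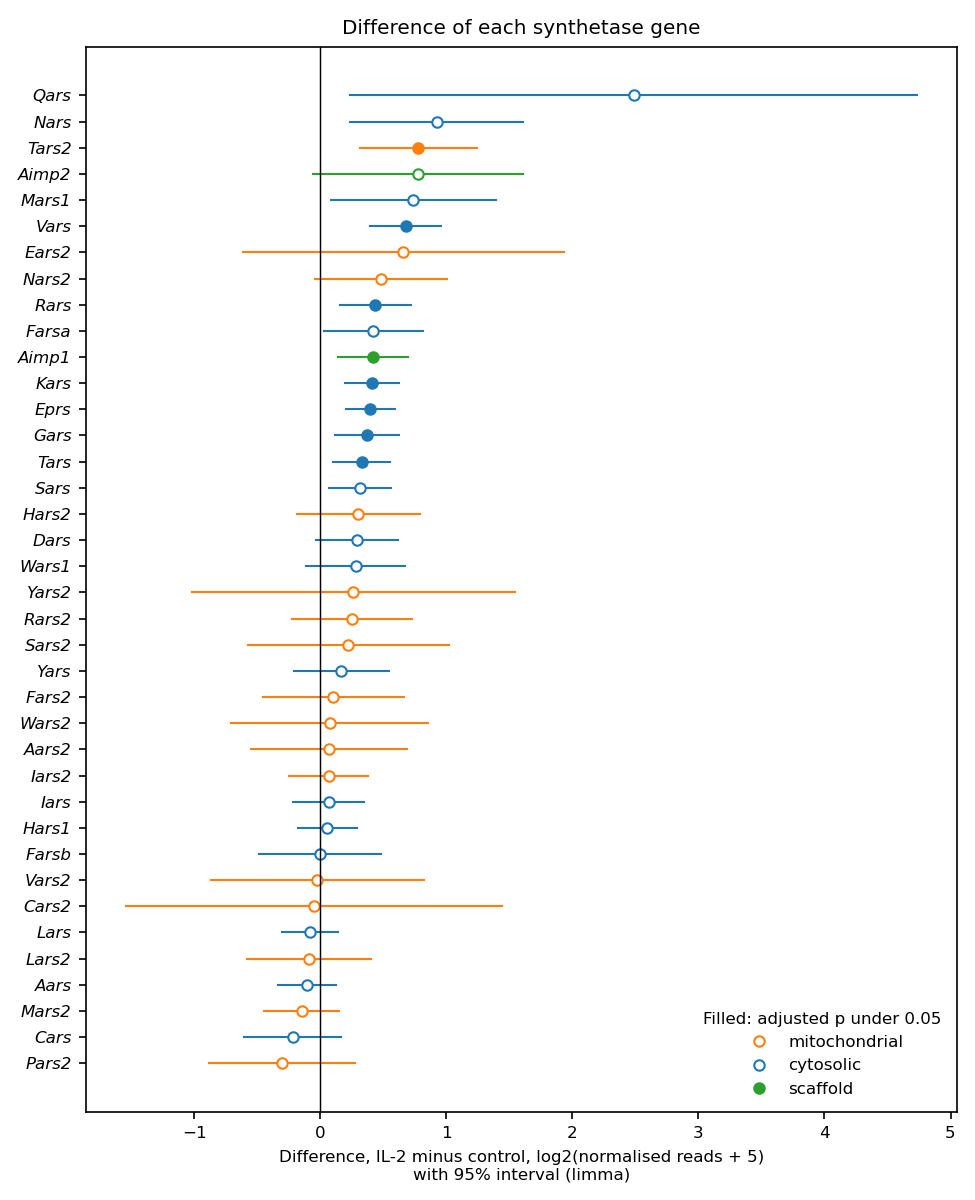
Difference of each gene between IL-2 and control (horizontal axis, log2(normalised reads + 5), limma) with its 95% interval, by compartment, with filled points for an adjusted p under 0.05. The 8 filled points, 6 of them cytosolic, all lie to the right of 0, while the 30 open points lie on both sides of 0.

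Tars2, the mitochondrial threonyl-tRNA synthetase, was the mitochondrial enzyme that rose. It had 294, 418, 501 and 485 reads with IL-2 and 160, 280, 263 and 283 in controls. Library 41 was the lowest of the IL-2 group, only just above control libraries 46 and 48, and control library 45 was the lowest of all. The ratio was 1.72 (log2 difference 0.78 ± 0.21 SE, limma adjusted p = 0.0222, and 0.0125 on the deposited scale). The call on normalised reads was lost without library 43 or 44 (limma adjusted p = 0.0656 and 0.0580), and that on the deposited scale was not. Among the other well-read mitochondrial genes, Lars2 had 435, 925, 515 and 663 reads against 735, 872, 492 and 557. The spread within each group was larger than the difference between them. Iars2 stood at 569 ± 86.6 and 544 ± 91.0 and Mars2 at 255 ± 22.1 and 284 ± 30.4 (limma adjusted p = 0.801 and 0.508). Nars2, the mitochondrial partner of Nars, had 102, 74.4, 103 and 102 against 67.2, 52.7, 88.7 and 61.5 (log2 difference 0.48 ± 0.24 SE, limma adjusted p = 0.190). Library 42 lay among the controls. The remaining mitochondrial enzymes had ratios from 0.80 for Pars2, the prolyl-tRNA synthetase, to 1.48 for Ears2, the glutamyl-tRNA synthetase, the latter on 0 to 30.4 reads per library.

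The mitochondrial enzymes were also measured less well. Their median level over both groups was 84.7 normalised reads against 425 for the cytosolic enzymes, and their median coefficient of variation was 37.3% within the IL-2 group and 26.0% within controls, against 11.8% and 12.9%. Intervals at such levels were of unequal width. They ran from -0.71 to 0.86 on the log2 scale for Wars2 and from -0.87 to 0.83 for Vars2, which include a rise of the size seen for Eprs (0.40), and from -0.88 to 0.28 for Pars2, which does not. Divided by coding length, cytosolic enzymes had a median of 201 normalised reads per kilobase over both groups, from 77.0 for Mars1 to 475 for Dars. Mitochondrial enzymes had a median of 56.9 per kilobase, reaching 240 for Lars2. With IL-2, Tars2 stood at 196 per kilobase and in controls at 114, while Iars2, at 187 and 179, was as high as many cytosolic enzymes in both groups.

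Enzymes of the same amino acid in the cytosol and in mitochondria were set side by side, with Eprs as partner of both Ears2 and Pars2, and Farsa and Farsb as partners of Fars2. In the 17 pairs with both genes fitted, the cytosolic difference was the larger in 9. Threonine was the amino acid for which both enzymes rose, Tars by 0.33 and Tars2 by 0.78 on the log2 scale. For valine the cytosolic Vars rose by 0.68, while Vars2 had a difference of -0.02 with a wide interval. For leucine and isoleucine neither compartment gave a call, with differences of -0.08 and -0.09 for Lars and Lars2 and of 0.07 for both Iars and Iars2. Differences between partners were not tested.

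**Figure D4:**
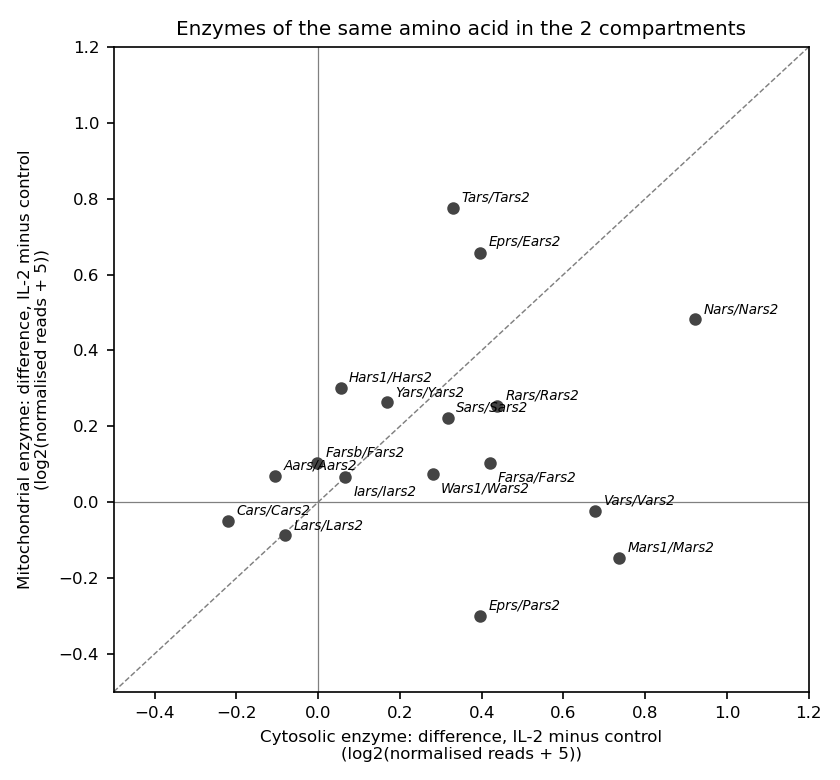
Difference between IL-2 and control of the cytosolic enzyme (horizontal axis) and of the mitochondrial enzyme (vertical axis) for the same amino acid, both as log2(normalised reads + 5), with 1 point per pair and a dashed line of equal values. The points lie on both sides of the dashed line, with Tars and Tars2 above it and Vars and Vars2 far below.

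Promoter windows are shown because cytosolic synthetase genes are known targets of the amino acid response, whose factors bind a C/EBP-ATF element, and of Myc, which binds E-boxes. RefSeq sequence of GRCm38.p6 was at hand for 29 of the 39 genes, as the 250 bases before the gene's start; the deposited values were made on GRCm39, so these coordinates belong to the sequence table. The letters TGATGNAA (element core) and CACGTG (E-box) were searched on both strands. The core was found in Tars, Gars and Aars, 3 of 29 genes (10.3%) and 3 of their 31 windows, against 3.45% of all 32851 windows. The E-box was found in Aars, Iars and Farsb, also 3 of 29 genes and 3 of 31 windows, against 6.02% of all windows. The windows of the 4 genes with a match that were tested on the deposited scale are given 5′ to 3′ on the gene's strand, ending at the base before the start, with matches in capitals; no matches overlapped.
Tars: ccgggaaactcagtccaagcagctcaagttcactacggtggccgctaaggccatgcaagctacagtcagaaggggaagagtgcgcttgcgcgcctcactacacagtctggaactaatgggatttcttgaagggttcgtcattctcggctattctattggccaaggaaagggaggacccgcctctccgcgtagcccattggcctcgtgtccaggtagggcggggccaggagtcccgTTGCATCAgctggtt
Gars: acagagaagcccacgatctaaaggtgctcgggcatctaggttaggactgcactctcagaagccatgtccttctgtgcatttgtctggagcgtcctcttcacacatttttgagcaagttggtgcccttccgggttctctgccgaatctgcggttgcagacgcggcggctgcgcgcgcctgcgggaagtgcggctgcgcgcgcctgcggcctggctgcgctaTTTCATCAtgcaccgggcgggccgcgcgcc
Aars: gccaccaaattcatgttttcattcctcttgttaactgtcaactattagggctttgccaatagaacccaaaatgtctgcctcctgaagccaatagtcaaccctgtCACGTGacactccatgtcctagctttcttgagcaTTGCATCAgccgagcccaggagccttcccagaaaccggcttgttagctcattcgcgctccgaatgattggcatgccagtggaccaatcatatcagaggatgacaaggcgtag
Iars: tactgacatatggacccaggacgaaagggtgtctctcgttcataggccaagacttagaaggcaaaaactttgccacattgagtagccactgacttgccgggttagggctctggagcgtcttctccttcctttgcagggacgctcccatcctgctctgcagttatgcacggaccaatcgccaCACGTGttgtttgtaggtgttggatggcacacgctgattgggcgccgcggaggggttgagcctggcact
They lie at chr15:11399659-11399908, minus strand (Tars), chr6:55037751-55038000, plus strand (Gars), chr8:111033592-111033841, plus strand (Aars) and chr13:49681880-49682129, plus strand (Iars). The core begins 15 bases before the start in Tars, 30 in Gars and 112 in Aars, and is read on the opposite strand in all 3. Tars and Gars rose and Aars, which holds both motifs, did not pass, nor did Iars. Eprs, Kars, Sars, Aimp1 and Tars2 rose without either string in their windows. For Vars, Rars and Nars, which also rose, no window was at hand. A match is a string of letters and not a bound site.

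Genes around the enzymes were taken as lists. Their counts are read against the shares of all genes that rose, 16.8% on the deposited scale and 10.9% on normalised reads. Among 21 partners of aminoacylation, 1 of 4 tested on the deposited scale rose, and 1 of 20 on normalised reads, with 0 falling in either. The gene was Eef1a1, the elongation factor that carries charged tRNA to the ribosome, at 42297 ± 1955 reads against 30497 ± 1466 (limma adjusted p = 1.01e-04). Eef1e1, the third scaffold of the multisynthetase complex, had 42.8, 97.5, 119 and 88.5 reads against 46.3, 74.4, 72.2 and 76.8 (limma adjusted p = 0.589). Of the tRNA-modifying enzymes, 6 of 55 rose and 1 fell on normalised reads, near the background, and 1 of 13 rose and 0 fell on the deposited scale. Nsun2, a tRNA cytosine methyltransferase (1016 ± 38.8 against 775 ± 103), and Wdr4, the partner of the methyltransferase Mettl1, rose. Wdr4 had 83.5, 137, 91.5 and 53.9 reads against 45.4, 26.6, 5.22 and 0. Of the controls 2 were under 10 reads, so Wdr4 was tested through the IL-2 group. Adat3, another of the 6, had 0 to 6.45 reads in controls, so that only the IL-2 group carried it past the filter. Trmt2b, a mitochondrial uridine methyltransferase, was lower with IL-2, at 65.7 ± 25.9 against 159 ± 16.0. The limma adjusted p of Nsun2 and Trmt2b was 0.0162 and 0.00554. RNA polymerase III and tRNA processing gave 3 rises and 0 falls among 39 on normalised reads, and 1 and 0 among 15 on the deposited scale, both below the share over all genes. The rises were Gtf3a (175 ± 25.7 against 81.0 ± 10.4), Polr1d and Pop1.

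The amino acid response list, which holds targets of the factor ATF4 and some genes upstream of it such as Eif2ak4, Gcn1 and Eif2s1, had the largest share of calls of these lists. The lists were chosen with results of an earlier analysis of these data known, so the share is described and was not tested. On the deposited scale 6 of 15 rose and 1 fell, with a median difference of 0.21, where 16.8% of all genes rose and 14.6% fell. Among the 6, Phgdh passed the filter on low values in 3 and Shmt2 in 2 of the 4 controls. On normalised reads 8 of 23 rose and 0 fell, with a median of 0.28, where 10.9% of all genes rose and 9.07% fell. Phgdh, the first enzyme of serine synthesis, had 374 ± 36.7 reads against 210 ± 31.3, and Aldh18a1, of proline synthesis, 573 ± 29.6 against 350 ± 40.9 (limma adjusted p = 0.00204 and 0.00104). Stc2, a secreted stanniocalcin, had 83.6, 68.9, 38.3 and 55.0 reads against 24.5, 0, 4.18 and 5.58. This gene, counted among the 8, reached 10 reads in 1 control, so it was tested through the group in which it is high, and no p is given. Atf4 itself stood at 465 ± 121 and 446 ± 50.1 (limma adjusted p = 0.944). The rises on both scales include Eif2s1, which lies upstream of ATF4, and 15 of the 23 genes on normalised reads gave no call. Ddit3 had the lower mean with IL-2, 54.0 ± 23.5 against 92.4 ± 5.51 (limma adjusted p = 0.0698). Sesn2 stood at 54.4 ± 7.40 and 51.9 ± 17.3, and Asns, Chac1, Slc7a11 and Cth had at most 12.0 reads in any library. Activity of ATF4 was not tested. The gene called lower on the deposited scale was Eif2ak4, which encodes the sensor kinase of uncharged tRNA, GCN2, at 180 ± 63.0 against 290 ± 67.4. There 4 control libraries but 1 IL-2 library passed the filter. That test rests on the group in which the gene is high, and no p is given for it. On normalised reads Eif2ak4 did not pass (limma adjusted p = 0.0577).

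How far each call rested on single libraries differed between members. Vars, Eprs, Kars and Tars2 passed on the deposited scale whichever library was left out. Rars lost its call without IL-2 library 43 or 44 or control library 47 (limma adjusted p = 0.0639, 0.0516 and 0.0661). Aimp1 lost it without 41, 44, 47 or 48 (0.0555 to 0.0760), Tars without 41, 44, 45, 46 or 47 (0.0560 to 0.0783) and Nars without 41, 44, 46 or 48 (0.0535 to 0.0743). Gars lost it without 42, 43, 45, 47 or 48 (0.0541 to 0.0913), and Sars kept it only without 48. In the other direction Dars passed without library 43 (limma adjusted p = 0.0116), Qars without control library 46 and Mars1 without control library 48. For Qars and Mars1 the library left out was the 1 control past the filter on low values. The filter was not applied anew, so both were then tested through the IL-2 group alone, and no p is given for them. On normalised reads Vars, Eprs and Kars again passed without any 1 library. There Gars kept its call only without 44, Aimp1 only without 46, Rars only without 42 or 46 and Tars only without 43 or 48 (limma adjusted p up to 0.124 for Gars, 0.0985 for Aimp1, 0.0880 for Rars and 0.108 for Tars). On the deposited scale the number of cytosolic rises among 16 was 4 without library 44 or 47, 5 without 41 or 45, 6 without 42, 43 or 46 and 7 without 48. The count without 46 includes Qars and that without 48 includes Mars1.

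**Figure D5:**
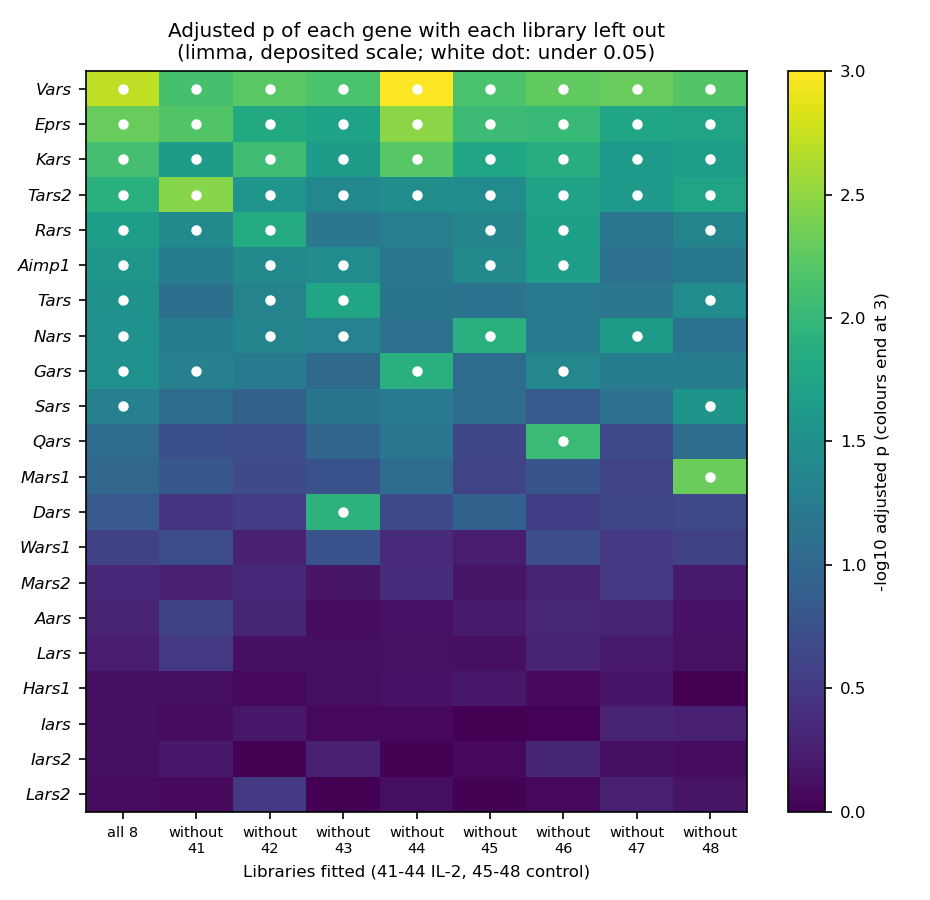
Adjusted p of limma on the deposited scale for the 21 tested genes (rows) with all 8 libraries and with each left out (columns), as -log10 in colour, with a white dot where it is under 0.05. The rows of Vars, Eprs, Kars and Tars2 carry a dot in every column, while Qars, Mars1 and Dars carry 1 each.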

How the data were processed

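RNA of flow-sorted spleen Tregs was made into strand-specific total RNA libraries with a low-input kit, per the labels' protocols. Per the submitters' processing notes, the tools were Salmon and DESeq2 and the build GRCm39. The authors deposited 1 table of variance-stabilised log2 values for 21524 genes. For annotation, filters and settings, the sources used here give nothing. Salmon shares ambiguous reads by estimation.

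Normalised reads were recovered by inverting the parametric variance-stabilising formula, whose scale is set by the lowest value, 8.69, taken as 0 reads. The 3 commonest small values per library, 24 in all, were whole multiples of 1 read within 0.001. Most other genes need not be whole, so no count test was run. The deposited scale is compressed: 1 unit above the lowest value is 206 normalised reads.

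limma (lmFit, eBayes with trend, no covariates, Benjamini-Hochberg over all genes tested, threshold 0.05) was run on deposited values with at least 4 libraries 1 or more above the lowest value. A second fit used log2(normalised reads + 5), at least 10 normalised reads in 4 libraries. Both follow an earlier analysis of these data; members and lists were chosen with its results known. Both fits were tested on simulated data. Differences of 0.25, 0.5, 1 and 1.5 put into these data were recovered in 50%, 86%, 100% and 100% on the deposited scale. On normalised reads they were recovered in 2%, 20%, 36% and 72%. Fewer genes were changed in the simulation than were called in these data. A given difference is also another fold change on each scale. The rates are thus only a rough guide to these fits and are not comparable between scales. A gene without a call on normalised reads is not shown to be equal between the groups. Alternatives changed the filter, pseudocount, scaling, variance model and libraries. Values per library are given for the 8 cytosolic genes with the smallest p, for Tars2, Wars1, Aimp1, Aimp2 and Eprs by rule; for Qars, Mars1, Dars, Aars, Lars2, Nars2, Eef1e1, Stc2 and Wdr4 after seeing them. From each list up to 3 genes with the smallest p are named. Atf4, Eef1e1, Eif2ak4, Adat3, Eif2s1, Ddit3, Asns, Chac1, Slc7a11, Cth and Sesn2 were added after seeing values. Coding lengths are the longest in GENCODE M21. Fits used limma 3.58.1 in R 4.3.3; tables and figures used Python 3.11.15 with pandas 2.3.3, matplotlib 3.10.9 and numpy 2.4.6. Some items are not reported here by name.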

Additional observations from a re-analysis of the deposited data

Results flagged for a closer look

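In 8 of 78 groups of 4 libraries examined (39 genes in each of 2 groups), 1 library lay far from the other 3 by Dixon's criterion, where chance gives about 1 in 20. Among cytosolic genes these were Cars in control library 47 (276 reads, the others 196 to 202), Farsa in control library 46 (196, the others 128 to 134), Lars in IL-2 library 41 (637, the others 526 to 530) and Nars in IL-2 library 44 (526, the others 386 to 406). Among mitochondrial genes they were Nars2 in IL-2 library 42 (74.4, the others 102 to 103), Sars2 in control library 46 (75.5, the others 38.1 to 43.9), Tars2 in control library 45 (160, the others 263 to 283) and Vars2 in IL-2 library 44 (38.7, the others 132 to 150). Without library 46, Farsa passed on normalised reads (limma adjusted p = 0.0423). Tars2 still passed without library 45 on both scales.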

How the results depend on the processing

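No paired analysis was possible because the groups share no replicate numbers (41 to 44 and 45 to 48). Over 997 values of single members under the alternatives, 909 stayed on the same side of the threshold, 77 lost it, 11 gained it and 0 reversed a call. Only genes called in the main fits could lose a call, 10 on the deposited scale and 8 on normalised reads. Of these, 4 and 3 passed in every setting in which they were tested. The 909 also hold the values of genes without a call, so they overstate how stable the calls are. Vars, Eprs and Kars passed under every alternative in which they were tested on both scales, and Tars2 under every such one on the deposited scale; the stricter filter there left out Vars, Kars and Tars2. With all genes tested on the deposited scale 4 of 20 cytosolic enzymes rose in place of 8 of 16. Of all genes, 1121 of 14904 rose there, in place of 883 of 5261. The stricter filter left 1 cytosolic gene, Eprs, which rose, and no mitochondrial gene, with 737 of 1519 genes called in all against 1650 of 5261. Leaving out 1 library gave 4 to 7 cytosolic rises on the deposited scale, the 7 including Mars1, then tested through the IL-2 group alone. Over all genes, 757 to 828 of 5261 rose in these refits, against 883 with all libraries. On normalised reads, where 6 rose, leaving out 1 library gave 3 to 6 cytosolic and 0 to 1 mitochondrial rises. The 6 without library 46 included Qars and Farsa, and the 6 without library 48 included Sars and Mars1. None of these genes was called on normalised reads with all 8 libraries. Over all genes, 974 to 1056 of 10777 rose in these refits, against 1172 with all libraries. Fitting normalised reads without trend gave 3 cytosolic and 0 mitochondrial rises. In no alternative run was a cytosolic or mitochondrial enzyme called lower. With Ddx3y as a covariate, chosen after seeing the data, 6 and 5 cytosolic enzymes rose on the deposited and read scales. On normalised reads in place of the deposited scale, tRNA modification gave 6 rises and 1 fall (1 and 0), RNA polymerase III 3 rises (1) and the amino acid response 0 falls (1), with more genes tested. As shares of the library, the ratios of the summed cytosolic and mitochondrial reads were 1.22 and 1.07, and without Qars, also chosen after seeing the data, the cytosolic ratio was 1.24. Counting error alone has a median of 10.9% for mitochondrial and 4.86% for cytosolic genes, below the spread between libraries.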
